A study of Mus musculus with 9 samples.

Results

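The coactivators YAP and TAZ, the TEAD transcription factors and a set of their regulators and target genes were followed through RNA sequencing of B.END3 cells, an established mouse brain endothelial line, after photodynamic intervention (PDT). The 10 genes were chosen by name out of 54532 listed genes: Yap1 and Wwtr1 (the gene of TAZ), Tead1 and Tead4, the kinase gene Lats2, the angiomotin genes Amotl1 and Amotl2, and the target genes Ankrd1, Cyr61 and Ctgf (now also called Ccn1 and Ccn2). Each group held 3 libraries of cells labelled mouse and C57BL/6, although the study's culture notes call the cells rat. Control cells (Ctrl) were labelled untreated, Ep1 cells received 300 µg/mL porfimer sodium for 90 min and then 635 nm light at 100 mW/cm2 up to a dose of 10 J/cm2, and Ep2 cells received the same drug and light up to 20 J/cm2. Libraries with drug alone or light alone were not analysed here, so the part of the drug and the part of the light cannot be told apart, and the time from light to lysis was not given in the sources used here. Nothing in the labels says that replicates were separate cultures, so the p-values measure only the spread between these libraries, which may be technical.

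YAP and TAZ carry no DNA-binding domain of their own and act on genes mainly through the TEAD factors. In the Hippo pathway the kinases LATS1 and LATS2 phosphorylate YAP and TAZ, which keeps them in the cytoplasm, and angiomotins and other junction proteins hold them there as well. Several regulators, among them LATS2 and AMOTL2, are themselves targets of YAP, and in endothelial cells YAP and TAZ are known for their part in vessel sprouting and in the response to flow. The activity of YAP and TAZ is set largely by phosphorylation and location, which RNA levels do not measure.

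Promoter sequence is shown first because TEAD binding is what ties target genes to YAP and TAZ. The RefSeq promoter table (GRCm38.p6, windows of 300 bases, 250 before and 50 from the start site on) held 9 windows for 7 of the 10 genes. Each window was searched on both strands for the TEAD core, spelled GGAATG, for the AP-1 motif, spelled TGACTCA, and for the CArG box. The TEAD core was found for 6 of the 7 genes, and it lies in the windows of 16.6% of all 27025 genes of the table. The AP-1 motif (5.95% of genes) and the CArG box (1.81% of genes) were found for 0 of the 7, so no TEAD core overlapped another motif. A match only describes the letters of the window. The 250 bases before the start site are printed 5′ to 3′ on the strand of the gene for Ankrd1, Amotl2 and Cyr61, targets that were higher, lower and not called after PDT, and for Wwtr1, with the TEAD core in capitals, which reads as its reverse complement in Amotl2 and Cyr61. Ankrd1 lies on the minus strand (chr19:36119845-36120094), Amotl2 on the plus strand (chr9:102717554-102717803), Cyr61 on the minus strand (chr3:145649986-145650235) and Wwtr1 on the minus strand (chr3:57575877-57576126).
Ankrd1: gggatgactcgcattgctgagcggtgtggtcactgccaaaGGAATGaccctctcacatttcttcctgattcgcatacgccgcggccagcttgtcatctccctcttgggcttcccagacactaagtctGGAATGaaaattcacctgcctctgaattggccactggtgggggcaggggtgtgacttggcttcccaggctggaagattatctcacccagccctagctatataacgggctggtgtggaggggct
Amotl2: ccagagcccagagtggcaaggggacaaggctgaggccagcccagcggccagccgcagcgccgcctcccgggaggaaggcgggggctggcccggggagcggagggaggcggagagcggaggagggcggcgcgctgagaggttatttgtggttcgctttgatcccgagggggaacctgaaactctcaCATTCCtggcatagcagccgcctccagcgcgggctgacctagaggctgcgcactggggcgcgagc
Cyr61: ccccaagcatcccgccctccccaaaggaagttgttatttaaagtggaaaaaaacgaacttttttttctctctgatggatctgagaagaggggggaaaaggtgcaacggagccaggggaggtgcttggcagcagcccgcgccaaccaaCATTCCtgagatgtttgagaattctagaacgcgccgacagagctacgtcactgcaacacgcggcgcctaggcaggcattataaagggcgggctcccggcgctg
Wwtr1: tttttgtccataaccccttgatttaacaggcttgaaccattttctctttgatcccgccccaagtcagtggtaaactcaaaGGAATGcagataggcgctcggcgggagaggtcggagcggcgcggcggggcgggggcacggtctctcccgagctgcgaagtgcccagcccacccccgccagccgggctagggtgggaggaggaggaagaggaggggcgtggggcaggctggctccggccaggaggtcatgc

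Counted from the start site, with minus for bases before it, Ankrd1 had 2 cores, which began at -210 and -123. The Amotl2 core began at -65, the Cyr61 core at -103 and the Yap1 core at -141. Wwtr1 had 2 overlapping windows that hold the same core, at -170 or -136 depending on which start is taken. Of the 2 Lats2 windows, the core was found in 1, at base 5 of the transcript, and the Amotl1 window held none. The Lats2 windows (chr14:57734369-57734668 and 57746074-57746373) lie inside the deposited gene span, which begins at 57758388 on the minus strand. The Amotl1 window (chr9:14614951-14615250) likewise lies inside a span that begins at 14645056. So does the Amotl2 window (chr9:102717554-102717853), in a span that begins at 102716672 on the plus strand, and its core at -65 is counted from this inner start. The outer starts of these genes were not searched.

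**Figure D1:**
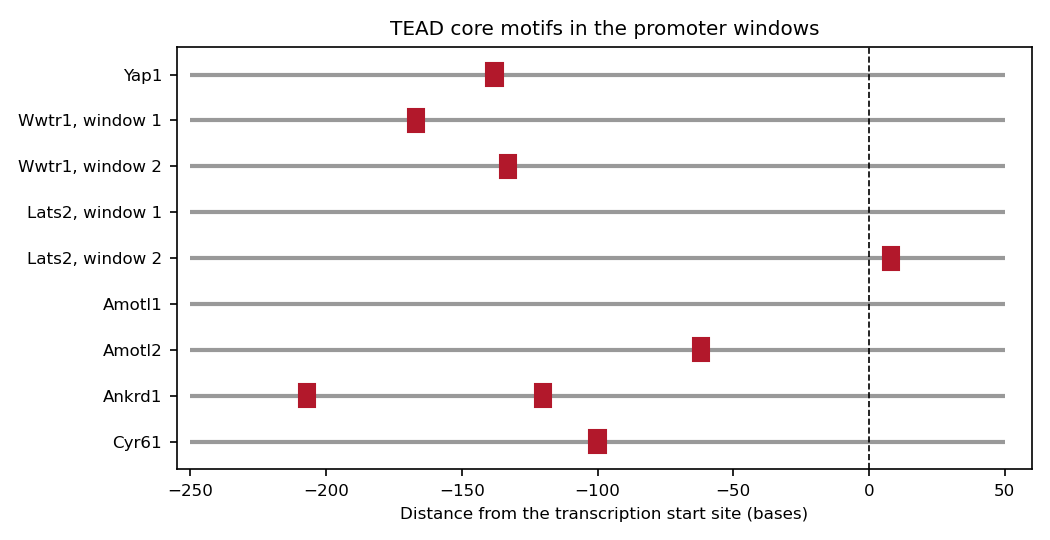
Positions of the TEAD core (red boxes, drawn 6 bases wide) in the 9 promoter windows (grey lines), by distance in bases from the transcription start site (dashed line). Ankrd1 has 2 cores, Amotl1 and the first Lats2 window none, and the Lats2 core is the one lying after the start site.

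All 10 genes passed the filter on low values. Levels are given as FPKM (fragments scaled to gene length and to library size), and changes as differences in log2(FPKM + 1), which understate the change of genes with low FPKM. Total fragments on genes were 18289776 to 19509225 in Ctrl, 16797492 to 18603707 in Ep1 and 16240688 to 18575984 in Ep2. A gene was called changed when the limma adjusted p over the 11727 tested genes was below 0.05. The endothelial label was checked against 12 marker genes. Flt1 and Eng were the 2 of 12 markers with a mean of at least 1 FPKM. Cdh5 was somewhat below that level, at 0.857 ± 0.0471 FPKM in Ctrl (SD, n = 3) and on 42 to 85 fragments a library. In Ctrl, Pecam1 was at 0.143 ± 0.0558, Vwf at 0.104 ± 0.00784 and Kdr at 0.0407 ± 0.0127 FPKM. Cldn5 was at 0.0254 ± 0.0439, Tek at 0.0328 ± 0.0290, Esam at 0.0429 ± 0.0387 and Tie1 at 0.0769 ± 0.0774 FPKM in Ctrl. Erg and Emcn were listed at 0 in every library. Apart from Flt1, Eng and Cdh5, the 12 markers were thus near or at 0, which goes against the endothelial label. In bulk libraries, fewer cells with a transcript and less of it per cell cannot be told apart.

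In Ctrl the order of levels was Wwtr1, Cyr61, Yap1, Tead4, Amotl1, Tead1, Amotl2, Ctgf, Lats2 and Ankrd1, and the libraries of neighbouring genes did not overlap anywhere in this order. In Ep2, Tead1 had moved from place 6 to place 4. There its libraries overlapped those of Tead4, the Tead4 libraries overlapped those of Amotl1, and Lats2 now lay above Amotl2 with overlapping libraries. In Ep1, Ctgf stood above Amotl2, also with overlap.

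**Figure D2:**
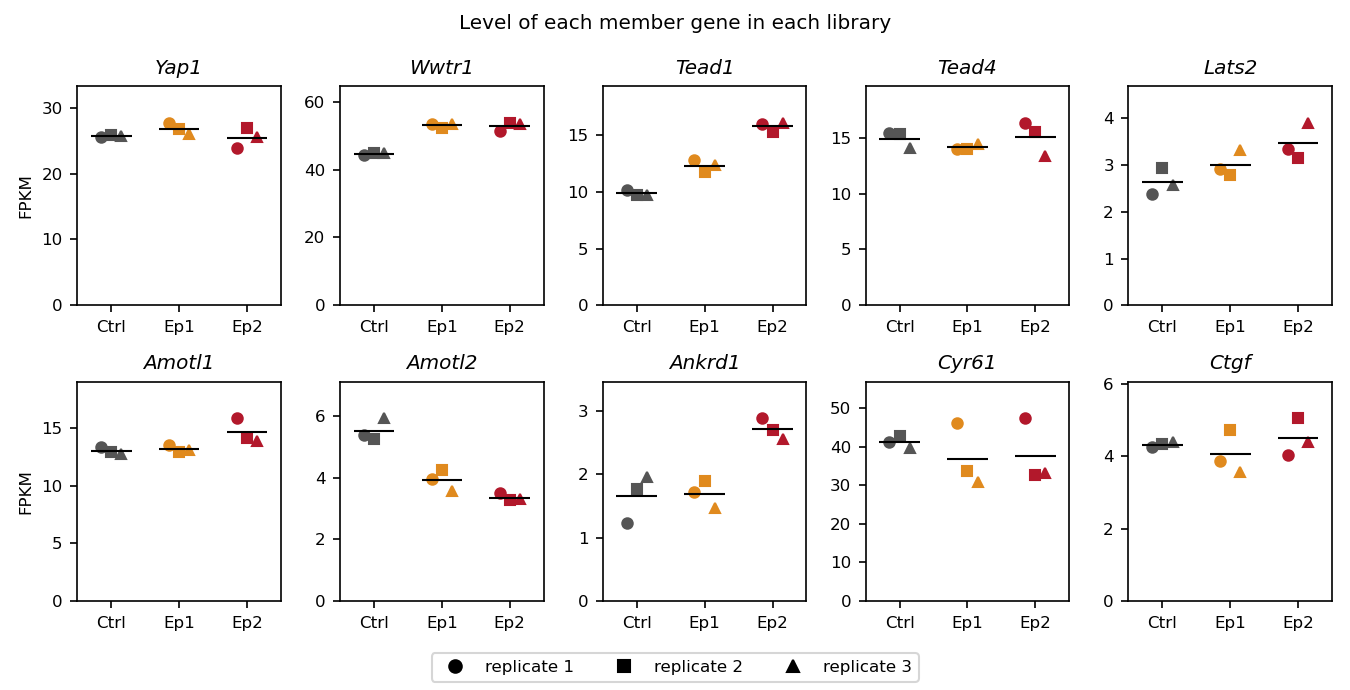
FPKM of the 10 genes in each of the 9 libraries (markers, by replicate number), with the mean of each group as a line and axes that start at 0. Tead1 is higher at each dose step, Amotl2 lower in both treated groups, Ankrd1 higher only in the Ep2 libraries, and replicate 1 of both treated groups stands apart for Cyr61.

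After the lower dose, Tead1 and Wwtr1 were higher and Amotl2 was lower than in Ctrl, and the other 7 genes did not pass the test. Thus 3 of 10 genes were called (2 higher, 1 lower) where 11.3% of all tested genes were called (6.32% higher, 4.97% lower), and the libraries of 4 of 10 genes did not overlap with Ctrl where 41.3% of tested genes did not. The median change over the 10 genes was 0.02, and over all tested genes it was -0.01.

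After the higher dose, Tead1, Ankrd1, Lats2, Wwtr1 and Amotl1 were higher than in Ctrl and Amotl2 was lower. These 6 of 10 genes (5 higher, 1 lower) stand beside 53.2% of all tested genes called (23.9% higher, 29.3% lower), so the share called was near that of the whole transcriptome. The split of all calls, 2800 higher and 3436 lower, was 3311 and 2971 with median centring and 3565 and 3484 with voom, and the same 6 genes were called in both. The libraries did not overlap with Ctrl for the same number of genes, 6 of 10, against 59.7% of tested genes. The median change was 0.10 for the 10 genes and -0.03 for all tested genes. The study's further limit, an absolute log2 fold change above 0.6, was applied here to log2(FPKM + 1). On that scale 9.17% of tested genes passed it, and Tead1 was left as 1 of 10. This depends on the added 1, since the Ep2 to Ctrl ratio of mean FPKM was 1.60 for Tead1, 1.64 for Ankrd1 and 0.61 for Amotl2. Between the doses, Tead1 and Ankrd1 were higher in Ep2 than in Ep1, that is 2 of 10 genes against 44.0% of tested genes called (18.8% higher, 25.2% lower), and the libraries of 4 of 10 genes did not overlap against 54.4%. Median centring of the libraries turned the split of all calls between the doses from 2206 higher and 2950 lower to 2974 higher and 2383 lower, and Tead1 and Ankrd1 stayed called. Amotl1 was called as well with median centring or voom, Amotl2 without Ep1 replicate 3, and both Tead4 and Amotl1 without Ep2 replicate 3 or with the length and GC correction, which made 4 of 10. The Ep1 and Ep2 comparisons share the Ctrl libraries and are not independent of each other.

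Of the coactivator pair, Wwtr1 was called higher at both doses and Yap1 at neither; the difference between the 2 genes was not tested. Yap1 (chr9:7931999-8004596, minus strand, ENSMUSG00000053110) was at 25.5, 25.9 and 25.7 FPKM in Ctrl, 27.8, 26.7 and 26.0 in Ep1 and 23.9, 26.9 and 25.5 in Ep2. The Ep1 libraries lay just above the Ctrl libraries and the Ep2 libraries spread around them. The change was 0.06 ± 0.05 (SE) in Ep1 (limma adjusted p = 0.454) and -0.02 ± 0.05 in Ep2 (adjusted p = 0.808), with a 95% confidence interval of -0.12 to 0.09 in Ep2.

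Wwtr1 (chr3:57455649-57575910, minus strand, ENSMUSG00000027803) was at 44.4, 44.9 and 45.0 FPKM in Ctrl, 53.5, 52.4 and 53.6 in Ep1 and 51.5, 53.9 and 53.6 in Ep2. Every treated library lay above every Ctrl library, and the treated groups overlapped each other. It rose by 0.24 ± 0.03 (SE) in Ep1 (limma adjusted p = 0.00758) and by 0.24 ± 0.03 in Ep2 (adjusted p = 0.00039). Between the doses the difference was -0.00 with a 95% interval of -0.08 to 0.07 (adjusted p = 0.931). The Wwtr1 to Yap1 ratio of FPKM was 1.73 to 1.75 in Ctrl, 1.93 to 2.06 in Ep1 and 2.0 to 2.15 in Ep2, so no treated library reached down to the Ctrl range.

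Among the TEAD genes, Tead1 rose and Tead2 and Tead3 fell in Ep2, Tead4 did not pass the test, and the summed level was close to 38 FPKM in all groups. Tead1 (chr7:112679318-112906807, plus strand, ENSMUSG00000055320), the gene of TEF-1, the founding member, was at 10.1, 9.73 and 9.71 FPKM in Ctrl, 12.8, 11.7 and 12.4 in Ep1 and 15.9, 15.3 and 16.1 in Ep2. The 3 groups did not overlap. It rose by 0.29 ± 0.05 (SE) in Ep1 (limma adjusted p = 0.00926) and by 0.63 ± 0.05 in Ep2 (adjusted p = 9.68e-06), and Ep2 was higher than Ep1 by 0.33 ± 0.05 (adjusted p = 0.000433). Tead1 is long (13570 bases), and the tested genes of 6286 to 41324 bases had a median change of 0.06 in Ep2 against -0.08 for those of 45 to 2127 bases. By GC content, the median Ep2 change was 0.10 for tested genes of 27.5 to 45.7% and -0.16 for those of 54.6 to 80.6%. With each library corrected for gene length and GC content, the Ep2 change of Tead1 was 0.53 (adjusted p = 2e-05), under the limit of 0.6. The corrected Ep2 changes were also smaller for Wwtr1 (0.20), Amotl2 (-0.46), Tead2 (-0.59), Tead3 (-0.34) and Vgll4 (-0.33). They were larger for Ankrd1 (0.52), Lats2 (0.35) and Amotl1 (0.18), and each of these genes stayed called.

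Tead4 (chr6:128224288-128300823, minus strand, ENSMUSG00000030353), the member needed for the first lineage choice of the embryo, was at 15.4, 15.3 and 14.1 FPKM in Ctrl, 14.0, 14.1 and 14.5 in Ep1 and 16.4, 15.6 and 13.4 in Ep2. All groups overlapped, and the Ep2 libraries spread on both sides of Ctrl. The change was -0.07 ± 0.07 (SE) in Ep1 (limma adjusted p = 0.54) and 0.01 ± 0.07 in Ep2 (adjusted p = 0.918, 95% interval -0.15 to 0.17). After the length and GC correction the Ep2 change was 0.16 (adjusted p = 0.0407), the setting in which Tead4 passed the test against Ctrl.

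Tead2, named here as a partner, was at 11.3, 11.7 and 9.78 FPKM in Ctrl, 9.92, 10.5 and 10.4 in Ep1 and 5.88, 6.28 and 6.00 in Ep2. Ep1 overlapped Ctrl and Ep2 lay well below both. It fell in Ep2 by 0.75 on the log2 scale (SE 0.06, limma adjusted p = 1.94e-05), and the change in Ep1 was -0.08 (adjusted p = 0.462). Tead3, the least abundant of the family, was at 2.15 ± 0.119 FPKM in control cells, 1.57 ± 0.0694 in Ep1 and 1.28 ± 0.190 in Ep2 (SD, n = 3 per group), a change of -0.29 in Ep1 (limma adjusted p = 0.0486) and -0.47 in Ep2 (adjusted p = 0.000999). The Ep1 call of Tead3 was lost in 11 of 16 alternative settings, where the adjusted p was 0.0587 to 0.147, among them the omission of any single Ctrl or Ep1 library or of Ep2 replicate 2.

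The summed FPKM of the 4 TEAD genes was 37.9 ± 1.91 in control cells, 38.3 ± 0.356 in Ep1 and 38.2 ± 1.56 in Ep2 (SD, n = 3 per group). Tead1 made up 26.1 ± 1.09% of the sum in Ctrl, 32.1 ± 1.28% in Ep1 and 41.3 ± 2.41% in Ep2, without overlap between the groups. Tead2 made up 28.8 ± 1.30% in Ctrl, 26.8 ± 0.929% in Ep1 and 15.9 ± 0.878% in Ep2, with all Ep2 libraries below the rest. Tead4 was at 39.5 ± 0.0454%, 37.0 ± 0.389% and 39.5 ± 2.55%, and Tead3 at 5.69 ± 0.222%, 4.11 ± 0.219% and 3.34 ± 0.382%, in the same order of groups. These shares are a description without a test of their own, and the tests of the single genes are those given above.

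**Figure D3:**
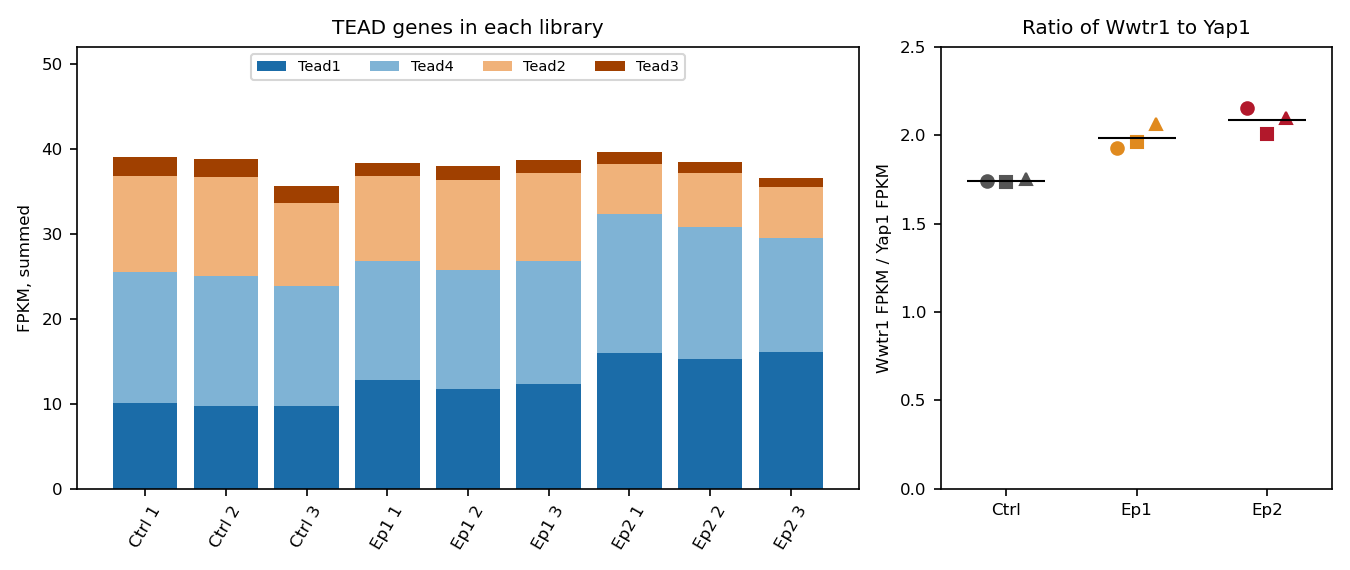
Left, FPKM of the 4 TEAD genes stacked for each library; right, the ratio of Wwtr1 to Yap1 FPKM in each library, with group means as lines. The stacks end between 35.7 and 39.6 FPKM in all libraries while the Tead1 part widens and the Tead2 part shrinks in Ep2, and the ratio is higher in every treated library than in Ctrl.

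The Vgll genes encode cofactors that bind TEAD in place of YAP and TAZ, and VGLL4 is known to oppose YAP. Vgll4 was at 10.1, 10.8 and 9.99 FPKM in Ctrl, 6.90, 6.56 and 6.59 in Ep1 and 9.14, 6.47 and 6.23 in Ep2. All treated libraries lay below Ctrl, with the first Ep2 library closest to it. It fell by 0.55 in Ep1 (SE 0.11, limma adjusted p = 0.0185) and by 0.46 in Ep2 (SE 0.11, adjusted p = 0.00657). Its Ep1 call was lost in 5 settings, without Ctrl replicate 1 or 2, without Ep1 replicate 1 or 3 and with no filter, where the adjusted p was 0.0587 to 0.0834. Vgll1 and Vgll3 were listed at 0 in every library, and Vgll2 had 0 to 2 fragments.

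The brakes on YAP and TAZ did not move together. Lats2 (chr14:57689662-57758388, minus strand, ENSMUSG00000021959), a kinase of YAP and TAZ and one of their targets, was at 2.39, 2.93 and 2.57 FPKM in Ctrl, 2.91, 2.78 and 3.32 in Ep1 and 3.34, 3.15 and 3.91 in Ep2. The Ep2 libraries lay above Ctrl, and Ep1 overlapped both. It rose in Ep2 by 0.30 ± 0.09 (SE, limma adjusted p = 0.017), and in Ep1 the change was 0.14 ± 0.09 (adjusted p = 0.314). Without Ctrl replicate 1 the Ep2 change was 0.25 (adjusted p = 0.0651) and without Ep2 replicate 3 it was 0.23 (adjusted p = 0.0587). Gm20430 overlaps Lats2 on the other strand, with 2 to 8 fragments a library against 321 to 453 for Lats2.

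Amotl1 (chr9:14541966-14645056, minus strand, ENSMUSG00000013076), an angiomotin family gene of cell junctions, was at 13.3, 13.0 and 12.7 FPKM in Ctrl, 13.5, 12.9 and 13.1 in Ep1 and 15.8, 14.1 and 13.9 in Ep2. The Ep2 libraries were all above Ctrl and the first of them led. The change in Ep2 was 0.15 ± 0.05 (SE, limma adjusted p = 0.0355) and in Ep1 0.02 ± 0.05 (adjusted p = 0.854). The Ep2 call of Amotl1 was lost in 7 of 16 alternative settings, at adjusted p 0.0538 to 0.0954, among them the omission of any single Ctrl library, of Ep1 replicate 3 or of Ep2 replicate 1. Without Ep2 replicate 1 the change itself was 0.0992, against 0.14 to 0.17 without each Ctrl library.

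Amotl2 (chr9:102716672-102733418, plus strand, ENSMUSG00000032531), the related angiomotin gene whose promoter core is printed above, was at 5.40, 5.25 and 5.93 FPKM in Ctrl, 3.97, 4.27 and 3.56 in Ep1 and 3.50, 3.26 and 3.29 in Ep2. Both treated groups lay below Ctrl, and each Ep2 library was below each Ep1 library. It fell by 0.40 in Ep1 (SE 0.07, limma adjusted p = 0.0105) and by 0.58 in Ep2 (SE 0.07, adjusted p = 0.000101). From Ep1 to Ep2 the difference was -0.18 and did not pass the test (limma adjusted p = 0.0566). Without Ep1 replicate 3 the Ep1 change was -0.35 and just missed the test (adjusted p = 0.0502), in a setting that called 191 genes in all, and the difference between the doses was -0.23 and passed it (adjusted p = 0.0298). Amotl1 and Amotl2 thus stood on opposite sides of Ctrl in Ep2.

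Of the 3 targets that are not counted here as regulators of the pathway, Ankrd1 was called in Ep2, and Cyr61 and Ctgf were called in no comparison. Ankrd1 (chr19:36111965-36119844, minus strand, ENSMUSG00000024803), which encodes the cardiac ankyrin repeat protein and is widely used as a readout of YAP, was at 1.23, 1.77 and 1.95 FPKM in Ctrl, 1.72, 1.89 and 1.46 in Ep1 and 2.88, 2.70 and 2.56 in Ep2. The Ep2 libraries lay above all others, and Ep1 overlapped Ctrl. It rose in Ep2 by 0.49 ± 0.11 (SE, limma adjusted p = 0.00407), where the ratio of mean FPKM was 1.64, and in Ep1 the change was 0.03 ± 0.11 (adjusted p = 0.889). Ep2 was higher than Ep1 by 0.47 (adjusted p = 0.00723). The values rest on 42 to 97 fragments a library, and with voom on the recovered fragments, which needs no added FPKM of 1, the Ep2 change was 0.76 (adjusted p = 0.00297).

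Cyr61 (chr3:145646976-145649981, minus strand, ENSMUSG00000028195), a secreted matrix protein gene and an immediate early gene, was at 41.1, 42.8 and 39.7 FPKM in Ctrl, 46.2, 33.7 and 30.8 in Ep1 and 47.3, 32.6 and 33.1 in Ep2. In both treated groups the first library lay above all Ctrl libraries and the other two below all of them. The spread within the treated groups (SD 8.16 and 8.34 FPKM) was several times that in Ctrl (SD 1.54). The change was -0.18 ± 0.18 (SE) in Ep1 (limma adjusted p = 0.545) and -0.15 ± 0.18 in Ep2 (adjusted p = 0.511), with a 95% interval of -0.55 to 0.26 in Ep2, which contains changes of the size seen for Amotl1 and Wwtr1. The size depended on which library was left out: the Ep1 change was -0.35 without Ep1 replicate 1 (adjusted p = 0.214) and -0.06 without Ep1 replicate 3, and the Ep2 change was -0.32 without Ep2 replicate 1 (adjusted p = 0.12), -0.06 without Ep2 replicate 2 and -0.07 without Ep2 replicate 3.

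Ctgf (chr10:24595442-24598683, plus strand, ENSMUSG00000019997), the close relative of Cyr61 that acts on matrix and fibrosis, was at 4.24, 4.32 and 4.39 FPKM in Ctrl, 3.86, 4.73 and 3.56 in Ep1 and 4.03, 5.04 and 4.40 in Ep2. Treated libraries lay on both sides of Ctrl. The change was -0.08 ± 0.09 (SE) in Ep1 (limma adjusted p = 0.599) and 0.04 ± 0.09 in Ep2 (adjusted p = 0.723). In contrast to Cyr61, its highest treated libraries were replicate 2.

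**Figure D4:**
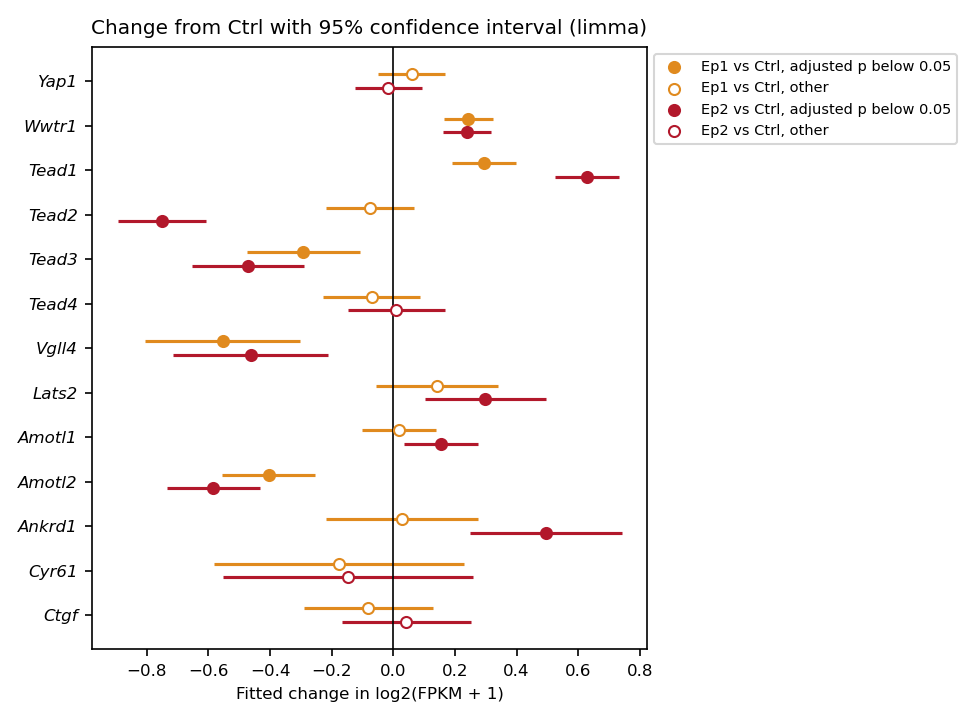
Fitted change in log2(FPKM + 1) from Ctrl with its 95% confidence interval for the 10 genes and for Tead2, Tead3 and Vgll4, in Ep1 (orange) and Ep2 (red); filled points had an adjusted p below 0.05. Tead1, Wwtr1, Ankrd1, Lats2 and Amotl1 lie to the right in Ep2 and Amotl2, Tead2, Tead3 and Vgll4 to the left, and the intervals of Cyr61 are the widest.

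A wider list of 27 Hippo pathway regulators places these genes among their partners. It was drawn from general knowledge, includes Lats2, Amotl1 and Amotl2, and had 25 tested genes, with Fat4 and Dchs1 below the filter. In Ep2, 18 of the 25 were called (12 higher, 6 lower), beside the background of 53.2%, with a median change of 0.14 against -0.03 for all tested genes, and in Ep1, 11 were called (7 higher, 4 lower), beside 11.3% of all tested genes (6.32% higher, 4.97% lower), with a median of 0.02. Lats1, the sister kinase of Lats2, was at 8.47 ± 0.151 FPKM in control cells, 12.2 ± 0.830 in Ep1 and 14.3 ± 1.13 in Ep2 (SD, n = 3 per group) and rose by 0.48 (limma adjusted p = 0.00704) and 0.69 (adjusted p = 3.56e-05). Taok1, a kinase that activates the Hippo kinases from above, went from 12.3 ± 0.365 FPKM to 16.5 ± 0.975 and 18.5 ± 1.69, a rise of 0.40 (limma adjusted p = 0.0111) and 0.55 (adjusted p = 0.000141).

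On the other side, Ajuba, a LIM protein gene that restrains LATS kinases, was at 24.6 ± 0.814 FPKM in control cells, 17.6 ± 1.37 in Ep1 and 14.2 ± 0.267 in Ep2. It fell by 0.46 (limma adjusted p = 0.00538) and by 0.75 (adjusted p = 1e-05). Named after their values were seen, the 6 regulators called lower in Ep2 were Ajuba, Amotl2, Vgll4, Ptpn14, Taok2 and Nf2. Ajuba is known to favour YAP activity, and the other 5 are known to restrain it. The 12 regulators called higher in Ep2 include Lats1, Lats2, Taok1 and Amotl1, which also act against YAP and TAZ. The rest of the 12, not sorted by role here, were Sav1, Mob1a, Mob1b, Wwc1, Wwc2, Map4k4, Frmd6 and Strn3. Genes that restrain YAP were thus called in both directions. Because the higher genes were sorted only in part, the numbers of restraining genes on the 2 sides cannot be compared. The Ep1 count of 11 fell together with the calls over all genes when 1 library was left out. It was 2 without Ep1 replicate 3 (191 of 11727 genes called, against 1324 with all libraries), 3 without Ctrl replicate 2 (193 genes), 5 without Ctrl replicate 1 (392 genes) and 5 without Ep1 replicate 1 (378 genes).

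The second list was a signature of 22 YAP and TAZ targets known from human tumours, of which 18 were tested and 5 (Amotl2, Lats2, Ctgf, Cyr61 and Ankrd1) are described above. Amotl2, Lats2 and Ptpn14 stand in both lists. In Ep2, 13 of the 18 were called (8 higher, 5 lower), beside the same 53.2%, with a median change of 0.04 against -0.03 for all tested genes. In Ep1, 2 of the 18 were called, F3 higher and Amotl2 lower, which is near the 11.3% of all tested genes, with a median of 0.01 against -0.01. F3, which encodes tissue factor, the starter of clotting, was at 13.2 ± 0.186 FPKM in control cells, 16.8 ± 1.5 in Ep1 and 19.7 ± 0.416 in Ep2 and rose by 0.32 (limma adjusted p = 0.013) and 0.54 (adjusted p = 6.7e-05). Fjx1 went from 2.08 ± 0.257 FPKM in Ctrl and 2.34 ± 0.119 in Ep1 to 1.15 ± 0.0392 in Ep2, with changes of 0.12 (limma adjusted p = 0.336) and -0.52 (adjusted p = 0.000456). The 5 targets called lower in Ep2, named after their values were seen, were Amotl2, Fjx1, Ptpn14, Arhgef17 and Axl, so the target list held called genes in both directions at the higher dose. The Ep1 count of 2 was 1 without Ctrl replicate 2 or without Ep1 replicate 3, and 6 without Ep2 replicate 1, where 2183 of all genes were called.

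**Figure D5:**
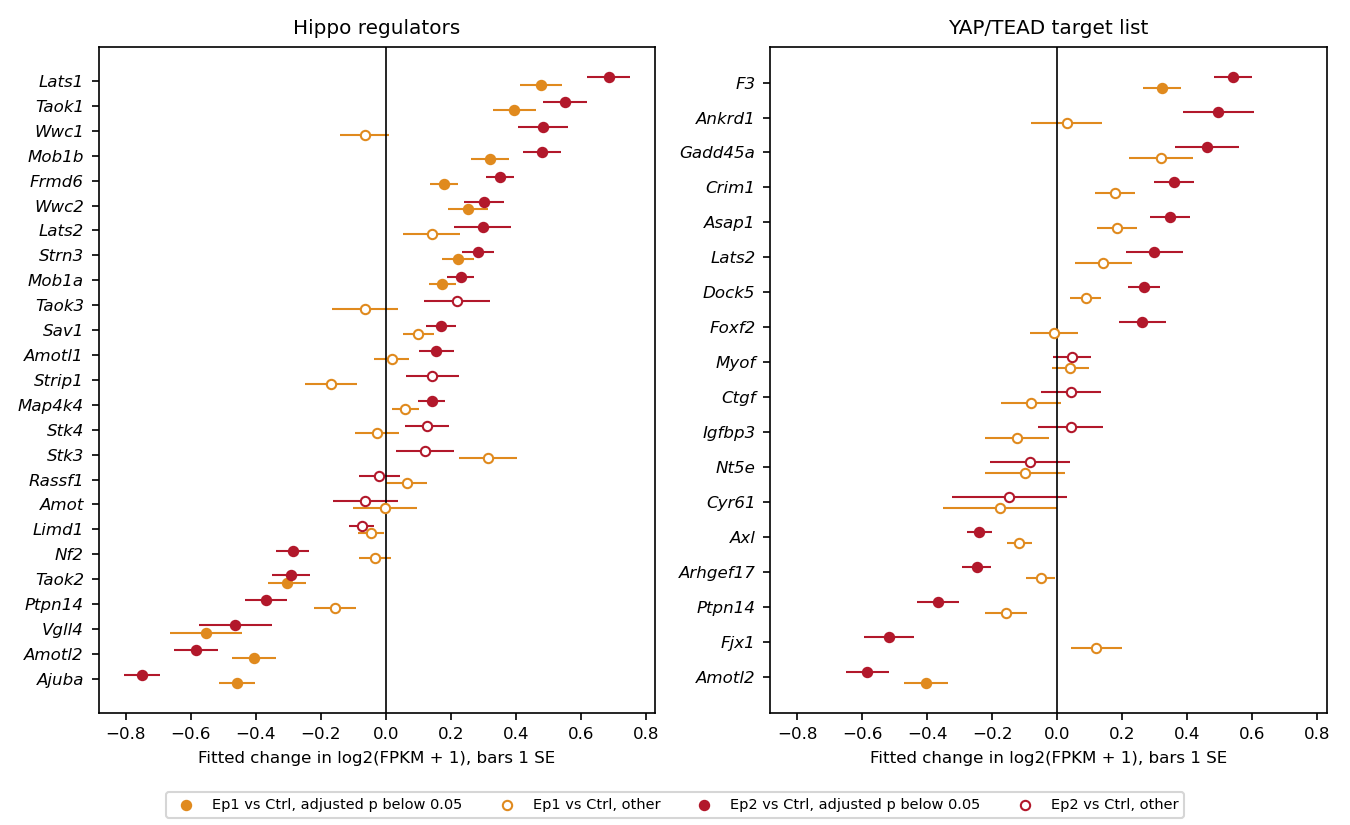
Fitted change in log2(FPKM + 1) from Ctrl, with bars of 1 SE, for the 25 tested Hippo regulators (left) and the 18 tested genes of the target list (right), in order of the Ep2 change; filled points had an adjusted p below 0.05. In Ep2, 12 regulators and 8 targets are filled to the right of 0 and 6 regulators and 5 targets to the left.

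Marker genes were set beside these counts. The summed FPKM of the 12 endothelial markers was 9.45 to 9.67 in Ctrl, 9.43 to 10.8 in Ep1 and 13.0 to 14.1 in Ep2. Flt1 made up most of it, at 6.90 ± 0.206 FPKM in Ctrl and 10.9 ± 0.732 in Ep2, a rise of 0.59 (limma adjusted p = 9.67e-05). Of 12 markers of immune, glial, neuronal, mural, fibroblast and epithelial cells, the sum was 11.5 to 13.2, 11.2 to 11.6 and 12.5 to 13.4 FPKM. Cd14 held most of that sum and Epcam rose in Ep2 from 0.812 ± 0.0741 to 1.77 ± 0.232 FPKM (change 0.61, limma adjusted p = 0.00154). The part of these markers in the changes of the YAP and TEAD genes was not tested.

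Patterns over the 9 libraries were compared for the coactivator Yap1 and for Ctgf, as a description. All genes share the sequencing depth and the group of a library, and depth differed among the libraries. The tested genes whose log2(FPKM + 1) followed Yap1 most closely were mt-Tc (Pearson r = 0.954), Ss18 (0.941), E2f5 (0.913), Mospd3 (0.906) and Ssu72 (0.900). For Ctgf they were CT033749.1 (Pearson r = 0.929), Dera (0.875), B3galt6 (0.843), Cdadc1 (0.834) and Gm15247 (0.833). Neither gene was called in any comparison, so these values follow small differences among libraries.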

How the data were processed

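RNA from 9 libraries (3 each of Ctrl, Ep1 and Ep2) was sequenced as paired ends by the study. The deposited values are FPKM, in which the authors scaled fragments to gene length and to library size, for 54532 genes; the 9 single-library tables equal the joint table. The submitters' processing notes name Bowtie 0.12.2 and mm8 and the methods name GRCm39, but 99.85% of 37626 compared genes overlap their RefSeq GRCm38.p6 positions against 10.91% of 50453 on GRCm39, so coordinates are given as deposited and read as GRCm38. The tool that counted the fragments was not given in the sources used here. FPKM times gene length gave whole fragments (100% of values within 0.05), 16240688 to 19509225 a library, so depth is known and intervals reflect the spread between libraries.

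From these, log2(FPKM + 1) of the 11727 genes that reached 1 FPKM in 3 or more libraries was fitted in one limma model of all 9 libraries (limma 3.58.1, R 4.3.3, robust eBayes with a trend, no covariates), with Benjamini-Hochberg adjustment within each comparison. Tables and figures used Python 3.11.15, and the fit was tested on simulated data. Alternatives were a pseudocount of 0.1, no filter, median centring, a replicate block, only the groups compared, voom on recovered fragments (14112 genes with at least 10 fragments in at least 3 libraries), the omission of each replicate and, chosen after seeing the data, a correction for length and GC content (spline with 4 degrees of freedom, 11600 genes). The members and lists were chosen with earlier results of these data known. Named were all members, all detected TEAD partners, and from the other 2 lists the 4 largest called changes in Ep2 and the 2 largest in Ep1. For Yap1 and Ctgf the 5 genes of most similar pattern were named. No list was given a test or p-value of its own.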

Additional observations from a re-analysis of the deposited data

How the results depend on the processing

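With the replicate block the counts were 3, 6 and 3 members (Ep1, Ep2, Ep2 against Ep1), 12 and 18 Hippo regulators and 2 and 13 targets (Ep1, Ep2); Amotl1 was the member added between the doses (limma adjusted p = 0.0482). Deviations from the group means correlated at -0.056 to 0.074 between same-numbered libraries and at -0.108 to 0.153 between others. No shared deviation by number was thus seen over all tested genes, which does not settle the matter for single genes. Cyr61 was highest in replicate 1 of both treated groups and Ctgf in replicate 2. Whether same-numbered libraries were handled together was not tested. Tead1, Wwtr1, Ankrd1 and Amotl2 kept their Ep2 calls and directions in all 16 alternatives. In Ep1, where 1324 of 11727 genes were called, 5 Hippo regulators were called with no filter (396 of 26717 genes) and 7 with the length and GC correction (868 of 11600 genes), and with the correction 4 members were called between the doses. In Ep1, 5 targets were called with only the groups compared (2162 genes) and 5 with voom (1995 of 14112 genes). Leaving out 1 library gave 2 to 3 members in Ep1, 4 to 6 in Ep2 and 2 to 4 between the doses, 2 to 13 Hippo regulators in Ep1 and 15 to 19 in Ep2, and 1 to 6 targets in Ep1 and 12 to 14 in Ep2. The 4 members in Ep2 came without Ctrl replicate 1 and the 4 between the doses without Ep2 replicate 3.

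Signs turned only for values that missed the test in the setting concerned. In Ep1, the length and GC correction gave 0.00624 for Tead2 and 0.000382 for Tead4. Wwtr1 between the doses was 0.0511 with median centring, 0.0316 with voom and 0.0109 with the correction. Yap1 in Ep2 was 0.0311 with median centring and 0.00297 with voom. Leaving out 1 library gave -0.0898 to 0.111 for Ankrd1 in Ep1, -0.0283 to 0.104 for Ctgf, -0.0482 to 0.0900 for Tead4 and -0.0551 to 0.0265 for Yap1 in Ep2, and -0.142 to 0.198 for Cyr61, -0.0642 to 0.180 for Vgll4 and -0.0168 to 0.0159 for Wwtr1 between the doses.

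With a pseudocount of 0.1, Ankrd1 (0.71) and Amotl2 (-0.70) also passed the fold limit of 0.6 in Ep2, as they did with voom (0.76 and -0.70), and Amotl2 passed it without Ctrl replicate 2 or Ep2 replicate 1 (-0.61 in both). The causes of these differences were not tested. Ankrd1, at 42 to 97 fragments, is the member with the fewest fragments.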

Other observations

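The patterns of 2 further genes were looked at after their values were seen, as a description over the same 9 libraries. Tead1 was followed most closely by Ereg (Pearson r = 0.997), which encodes the growth factor epiregulin and ranged from 7.68 to 16.1 FPKM, by Ypel5 (0.994), and by Mitf (0.994), a transcription factor gene at 1.93 to 4.67 FPKM. Amotl2 was followed most closely by Ajuba (Pearson r = 0.989), another regulator of the same pathway, at 13.9 to 25.4 FPKM. Tead1 and Amotl2 differed between the groups, and any gene that differs in the same order of groups has a high r across these libraries.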
